A study of Mus musculus with 12 samples.

Results

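Platelet and megakaryocyte genes were read across 12 spleen arrays of C57BL/6 mice. The set names 9 genes, of which 8 had a probe set annotated with 1 gene symbol: Pf4, Ppbp, Itga2b, Itgb3, Gp9, Gp5, Treml1 and Vwf. The ninth, Gp6, the platelet collagen receptor, had no such probe set and has no value here. These 8 are part of 19938 genes measured, and each was covered by 1 probe set. The labels give 4 arrays to each of 3 groups: TLR-deficient mice with septic peritonitis, wildtype mice with septic peritonitis, and wildtype mice left untreated. Peritonitis was induced by colon ascendens stent peritonitis, where a small tube is placed through the colon wall and gut bacteria leak into the abdomen. TLRs are Toll-like receptors, which sense microbial molecules, and Trif and MyD88, their adaptors, are named in the titles of the TLR-deficient samples. The group names do not state an age, a sex, the alleles behind the deficiency or, for the septic mice, the time after surgery. There was no group of untreated TLR-deficient mice, so a difference between genotypes before sepsis and one in the response to it cannot be told apart.

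Megakaryocytes are large cells of the bone marrow and, in mice, of the splenic red pulp, which shed platelets into the blood. Platelets carry no nucleus but keep RNA and granule proteins from their parent cell, and the spleen stores a pool of them. Their surface receptors bind von Willebrand factor, collagen and fibrinogen at a wound, and their alpha granules release chemokines and adhesive proteins. In bulk spleen RNA, fewer cells of a type and less RNA per cell cannot be told apart.

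The arrays did not follow their labels closely. Across the genes, the array most correlated with each array carried the same label for 5 of the 12. Numbers in the sample titles run from M5 to M8 for septic TLR-deficient replicates 1 to 4, from M9 to M12 for septic wildtype replicates 1 to 4 and from M13 to M16 for untreated replicates 1 to 4. For all 12 arrays the most correlated array lay in the same one of 3 runs of title numbers, M5 to M7 with M16, M8 to M11 and M12 to M15. These runs were drawn with earlier results of the same arrays known, so this likeness is no independent evidence, and the runs are not conditions of the labels. The fourth replicate of each group stood nearest to an array of another label: M8 to M9, M12 to M13 and M16 to M5. Whether these 3 arrays carry a wrong label, or the runs are technical, was not tested. Every labelled mean and difference below rests on the labels as given. M10 stood apart: its log2 values had an SD of 1.52, against 2.11 to 2.24 on the other 11 arrays, and it correlated with them at Pearson's r of 0.765 to 0.809, against 0.956 to 0.991 among the others. Myd88, which encodes one of the adaptors named in the titles, lay between 8.62 and 9.64 on septic TLR-deficient arrays, between 6.48 and 9.20 on septic wildtype arrays and between 8.87 and 9.75 on untreated arrays (log2 values). Ticam1, which encodes Trif, lay between 5.80 and 5.93, between 5.64 and 6.22 and between 5.76 and 6.57 in the same groups. Whether either probe set lies in a deleted part is not known. Markers of the labelled tissue were present at mean log2 values over the list of 8.86 to 10.84 for 3 of 4 B cell genes, 6.87 to 8.68 for all 4 T cell genes and 8.10 to 10.10 for all 6 red pulp macrophage genes. A list of 4 measured pancreatic acinar genes stood at 8.93 on M12 and 9.86 on M14, and at 4.75 to 6.93 on the other arrays.

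The promoters of 5 members are shown because they let the reader compare genes that followed each other across arrays with genes that did not. They are the 250 bases before the RefSeq start of each gene, in GRCm38.p6, 5′ to 3′ on the strand of the gene. Ppbp lies at chr5:90768268-90768517 (plus strand), Pf4 at chr5:90772185-90772434 (plus strand), Gp5 at chr16:30310782-30311031 (minus strand), Gp9 at chr6:87777820-87778069 (plus strand) and Itga2b at chr11:102469884-102470133 (minus strand). Capitals mark matches on either strand to GATAA, the core bound by GATA factors (TTATC on the opposite strand), or to AGGAAG, a core bound by ETS factors (CTTCCT on the opposite strand).
Ppbp: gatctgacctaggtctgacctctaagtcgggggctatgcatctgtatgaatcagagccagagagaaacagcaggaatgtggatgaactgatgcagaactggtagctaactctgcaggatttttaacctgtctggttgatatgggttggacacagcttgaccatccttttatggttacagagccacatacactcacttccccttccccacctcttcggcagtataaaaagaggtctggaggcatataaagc
Pf4: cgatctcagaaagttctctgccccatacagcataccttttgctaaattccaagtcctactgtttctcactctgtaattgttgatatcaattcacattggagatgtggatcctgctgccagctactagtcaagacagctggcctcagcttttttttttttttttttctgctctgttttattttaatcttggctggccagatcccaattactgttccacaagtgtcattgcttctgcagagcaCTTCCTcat
Gp5: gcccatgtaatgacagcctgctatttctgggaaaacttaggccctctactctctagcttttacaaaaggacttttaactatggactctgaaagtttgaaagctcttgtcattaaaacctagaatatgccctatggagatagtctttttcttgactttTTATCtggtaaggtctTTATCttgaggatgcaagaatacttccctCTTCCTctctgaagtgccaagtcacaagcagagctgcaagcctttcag
Gp9: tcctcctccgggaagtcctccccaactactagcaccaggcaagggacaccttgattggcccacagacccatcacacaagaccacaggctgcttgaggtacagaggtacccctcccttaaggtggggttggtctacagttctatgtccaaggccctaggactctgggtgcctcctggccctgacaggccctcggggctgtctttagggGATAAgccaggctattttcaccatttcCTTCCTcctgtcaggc
Itga2b: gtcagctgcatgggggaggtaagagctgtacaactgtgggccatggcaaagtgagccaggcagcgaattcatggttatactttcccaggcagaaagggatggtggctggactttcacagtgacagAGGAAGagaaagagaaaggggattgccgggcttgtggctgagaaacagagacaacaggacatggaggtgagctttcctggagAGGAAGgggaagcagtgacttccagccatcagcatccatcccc
The Ppbp and Pf4 starts are 3917 bases apart on the same strand. Of the 7 members in the RefSeq table, 3 held GATAA, against 22.6% of 32851 promoter windows of the same length. AGGAAG was found in 4 of the 7, against 29.5% of all windows, and TGACTCA, the core of AP-1 and NF-E2 sites, in 0 of the 7, against 4.46%. None of the matches of these motifs overlap in the members. In Gp5, GATAA matches lie at positions -93 to -89 and -77 to -73 before the start and the AGGAAG match at -48 to -43. In Gp9 the GATAA match lies at -43 to -39 and the AGGAAG match at -16 to -11. The Ppbp window holds no match to any of the 3 motifs. A match describes letters only and shows no binding.

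None of the measured members passed an adjusted p of 0.05 between any pair of labelled groups in limma, and neither did any other gene (percent called 0 in each comparison). The unadjusted p was under 0.05 for 0 of the 8 members in each comparison. Among all genes it was under 0.05 for 6.65% between the septic groups, 8.81% between septic and untreated wildtype arrays and 1.88% between septic TLR-deficient and untreated arrays. The labelled groups overlapped for every measured member in all 3 comparisons. Groups that lay fully above or fully below each other were seen for 2.05% and 1.76% of all genes between the septic groups, for 3.68% and 2.74% between septic and untreated wildtype arrays and for 2.4% and 0.998% between septic TLR-deficient and untreated arrays. The plot of values by labelled group shows each array. The comparisons share arrays, since each group enters 2 of them.

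**Figure D1:**
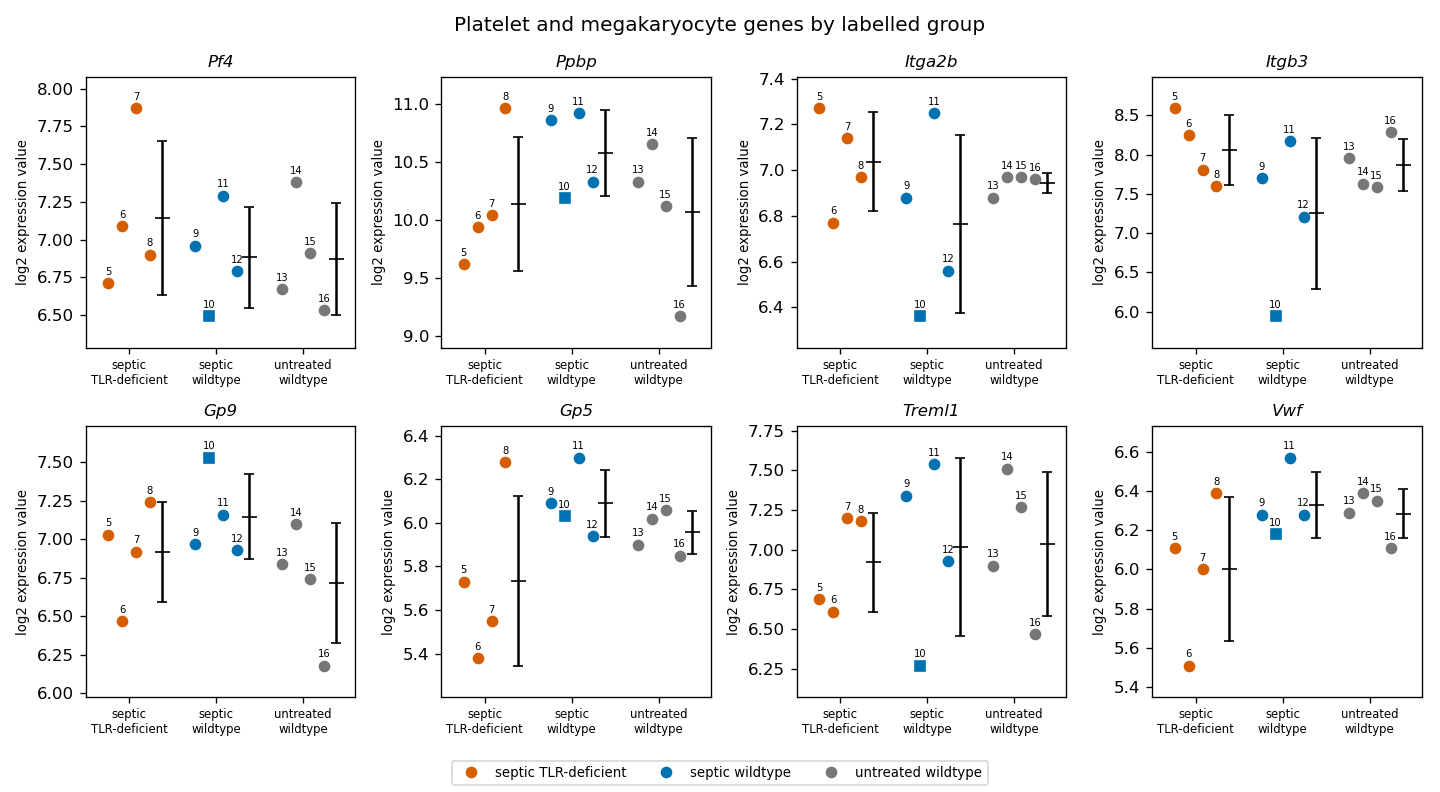
Log2 expression values of the 8 measured genes on each array (points, numbered by title number) in the 3 labelled groups, with mean and SD beside each group (n = 4). M10 is drawn as a square. The 3 groups overlap in every panel.

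Ppbp and Pf4 are the chemokines of the alpha granules. Ppbp encodes pro-platelet basic protein, from which proteases cut a neutrophil-attracting chemokine. It had log2 values of 9.62, 9.94, 10.04 and 10.96 on septic TLR-deficient replicates 1 to 4, 10.86, 10.19, 10.92 and 10.33 on septic wildtype replicates 1 to 4, and 10.33, 10.65, 10.12 and 9.17 on untreated replicates 1 to 4. The fourth TLR-deficient array held the highest value of all 12, and the fourth untreated array the lowest, and the labelled groups overlapped. The mean difference in Ppbp was -0.43 (SE 0.35, adjusted p = 0.594 in limma) between TLR-deficient and wildtype septic arrays and 0.51 (SE 0.35, adjusted p = 0.440) between septic and untreated wildtype arrays. Pf4 encodes platelet factor 4, a heparin-binding chemokine stored in the same granules. Its log2 values were 6.71, 7.09, 7.87 and 6.90 on septic TLR-deficient arrays, 6.96, 6.49, 7.29 and 6.79 on septic wildtype arrays and 6.67, 7.38, 6.91 and 6.53 on untreated arrays. M7, a TLR-deficient array, was the highest, and M10 and M16 were the lowest. Across the 12 arrays Pf4 and its neighbour Ppbp correlated at r = 0.31, and at 0.32 without M10. The Pf4 difference was 0.26 (SE 0.28, adjusted p = 0.640; 0.02 without M7 and 0.13 without M10) between the septic groups and 0.0084 (SE 0.28, adjusted p = 0.986) between septic and untreated wildtype arrays.

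Itga2b and Itgb3 form the fibrinogen receptor. Itga2b encodes its alpha chain, which is largely restricted to the megakaryocyte lineage, and Itgb3 its beta chain, which also pairs with another alpha chain on macrophages and endothelium. Itga2b had log2 values of 7.27, 6.77, 7.14 and 6.97 on septic TLR-deficient arrays, 6.88, 6.36, 7.25 and 6.56 on septic wildtype arrays and 6.88, 6.97, 6.97 and 6.96 on untreated arrays. Its range over all arrays was 0.90 log2 units, and 0.71 without M10. Itgb3 had log2 values of 8.59, 8.25, 7.81 and 7.60 on septic TLR-deficient arrays, 7.70, 5.94, 8.17 and 7.21 on septic wildtype arrays and 7.96, 7.63, 7.59 and 8.29 on untreated arrays. The value of 5.94 is that of M10, and the range of Itgb3 was 2.65 log2 units with it and 1.38 without it. The Itgb3 difference between TLR-deficient and wildtype septic arrays was 0.81 (SE 0.40, adjusted p = 0.590), the largest in size among the measured members in that comparison, and 0.37 (SE 0.28) without M10. Between septic and untreated wildtype arrays the Itgb3 difference was -0.61 (SE 0.40, adjusted p = 0.439), and -0.17 (SE 0.28) without M10. The 2 chains correlated at r = 0.80 across the arrays and at 0.59 without M10.

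The receptor for von Willebrand factor was represented by Gp9 and Gp5, which encode leucine-rich subunits of the complex, and Gp5 is cut by thrombin. Gp9 had log2 values of 7.03, 6.47, 6.92 and 7.24 on septic TLR-deficient arrays, 6.97, 7.53, 7.16 and 6.93 on septic wildtype arrays and 6.84, 7.10, 6.74 and 6.18 on untreated arrays. Its highest value was that of M10, on which Itgb3, Itga2b, Pf4 and Treml1 had their lowest. Gp5 had log2 values of 5.73, 5.38, 5.55 and 6.28 on septic TLR-deficient arrays, 6.09, 6.03, 6.30 and 5.94 on septic wildtype arrays and 5.90, 6.02, 6.06 and 5.85 on untreated arrays. Replicates 1 to 3 of the TLR-deficient group were the 3 lowest, and replicate 4 of that group stood with the highest. The Gp5 difference was -0.36 (SE 0.20, adjusted p = 0.590) between TLR-deficient and wildtype septic arrays and 0.13 (SE 0.20, adjusted p = 0.666) between septic and untreated wildtype arrays. For Gp9 these differences were -0.23 (SE 0.24, adjusted p = 0.629) and 0.43 (SE 0.24, adjusted p = 0.439).

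Vwf encodes von Willebrand factor, the adhesive ligand of that receptor, which endothelial cells make as well as megakaryocytes. Its log2 values were 6.11, 5.51, 6.00 and 6.39 on septic TLR-deficient arrays, 6.28, 6.18, 6.57 and 6.28 on septic wildtype arrays and 6.29, 6.39, 6.35 and 6.11 on untreated arrays. M6 was the lowest by a clear margin, and M11 the highest. The Vwf difference was -0.33 (SE 0.20, adjusted p = 0.590) between TLR-deficient and wildtype septic arrays and 0.04 (SE 0.20, adjusted p = 0.899) between septic and untreated wildtype arrays. The list of 8 endothelial genes had mean log2 values of 6.82 to 7.33 on septic TLR-deficient arrays, 6.12 to 7.33 on septic wildtype arrays and 7.31 to 7.44 on untreated arrays, and its part in the Vwf values was not tested. Treml1 encodes a receptor of the alpha-granule membrane that appears on the surface of activated platelets. It had log2 values of 6.69, 6.61, 7.20 and 7.18 on septic TLR-deficient arrays, 7.34, 6.27, 7.54 and 6.93 on septic wildtype arrays and 6.90, 7.51, 7.27 and 6.47 on untreated arrays. Treml1 averaged 6.92 ± 0.31 on septic TLR-deficient arrays, 7.02 ± 0.56 on septic wildtype arrays and 7.04 ± 0.45 on untreated arrays (SD, n = 4 each), so its group means lay closer together than the arrays of any group.

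Over the 8 measured members the median difference was -0.17 between TLR-deficient and wildtype septic arrays, where the median of all genes was -0.06. It was 0.02 between septic and untreated wildtype arrays, against 0.07 for all genes, and 0.08 between septic TLR-deficient and untreated arrays, against 0.01. In the first comparison 3 members had higher means and 5 lower ones, namely Ppbp, Gp9, Gp5, Treml1 and Vwf. In the other 2 comparisons 5 had higher and 3 lower means. Of all genes, 43.9% had higher means in the first comparison, 55.1% between septic and untreated wildtype arrays and 51.9% between septic TLR-deficient and untreated arrays. The plot of differences shows that no member differed by 1 log2 unit or more in these comparisons. Calls appeared among the members in 1 alternative, chosen after the arrays' likeness had been seen: without M8, M12 and M16, the fourth replicate of each group, and without M10, Ppbp (-1.03, SE 0.19, adjusted p = 0.0159 in limma) and Gp5 (-0.64, SE 0.15, adjusted p = 0.0453) were lower on septic TLR-deficient than on septic wildtype arrays. That fit called 5.03% of all genes and left 2 septic wildtype arrays, and leaving out M10 alone called none of the members. The reduced fit set M5 to M7 against M9 and M11, which lie in 2 different runs of title numbers. Label and run therefore cannot be told apart in it.

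**Figure D2:**
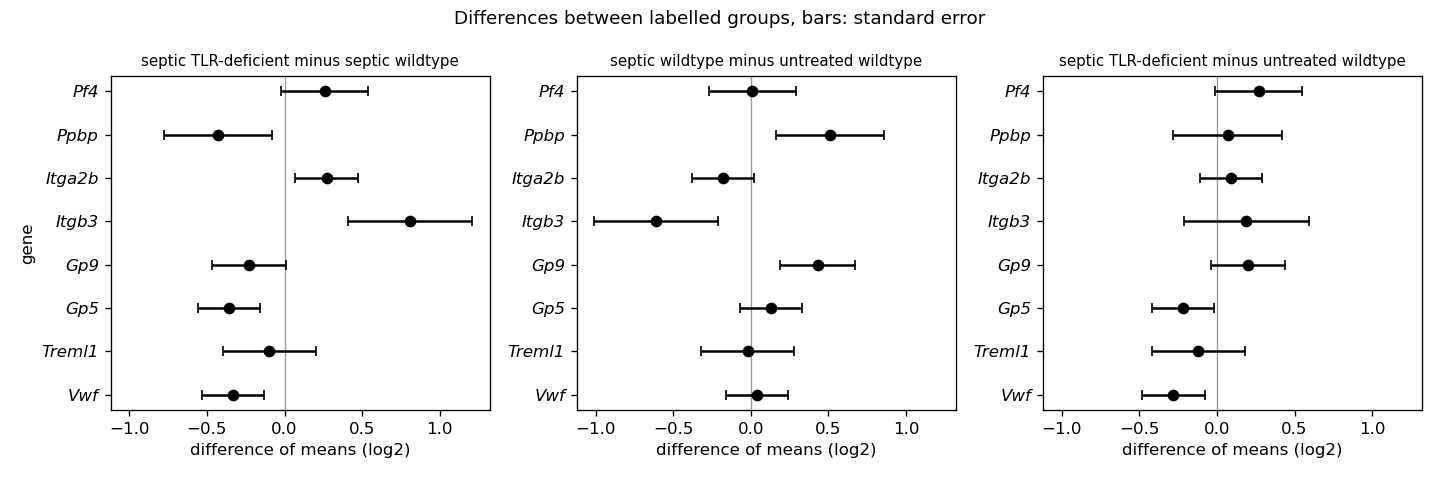
Differences of group means (log2) for the 8 measured genes in the 3 comparisons, with bars of 1 standard error from limma. Itgb3 has the largest difference in size between the septic groups, 0.81, and no difference passed an adjusted p of 0.05.

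Values by title number are given as ranges without a test. Ppbp lay between 9.17 and 10.04 on M5 to M7 and M16, between 10.19 and 10.96 on M8 to M11 and between 10.12 and 10.65 on M12 to M15. Gp5 lay between 5.38 and 5.85 on the first of these runs, between 6.03 and 6.30 on the second and between 5.90 and 6.06 on the third. Vwf lay between 5.51 and 6.11, between 6.18 and 6.57 and between 6.28 and 6.39 on the same runs. For these 3 of the 8 members, every array of the run M5 to M7 with M16 lay below every other array, which was the case for 1.85% of all genes. Without M10 it was the case for the same 3 members and for 5.07% of all genes. The gaps were small: the highest array of that run stood at 10.04 for Ppbp and the lowest of the others at 10.12, and for Gp5 these values were 5.85 and 5.90.

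Other members did not share this order. Treml1 lay between 6.47 and 7.20 on M5 to M7 with M16, between 6.27 and 7.54 on M8 to M11 and between 6.90 and 7.51 on M12 to M15. Gp9 lay between 6.18 and 7.03, between 6.97 and 7.53 and between 6.74 and 7.10 on the same runs. Itgb3 was at 7.81 to 8.59 on M5 to M7 with M16, at 5.94 to 8.17 on M8 to M11 and at 7.21 to 7.96 on M12 to M15. For 0 of the 8 members did that run lie above all other arrays, against 1.72% of all genes, and 2.18% without M10. Pf4 and Itga2b had ranges that overlapped among all 3 runs. With M10 left out, Ppbp and Gp5 were higher on M8, M9 and M11 than on every other array, as were 3.32% of all genes, and with M10 included no member was (1.18% of all genes). The run M8 to M11 lay below all other arrays for 0 of the 8 members with or without M10, against 2.12% and 2.63% of all genes. The run M12 to M15 lay above all others for 0 members (0.757% of all genes, and 0.903% without M10) and below them for 0 (0.818%, and 1.03% without M10).

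**Figure D3:**
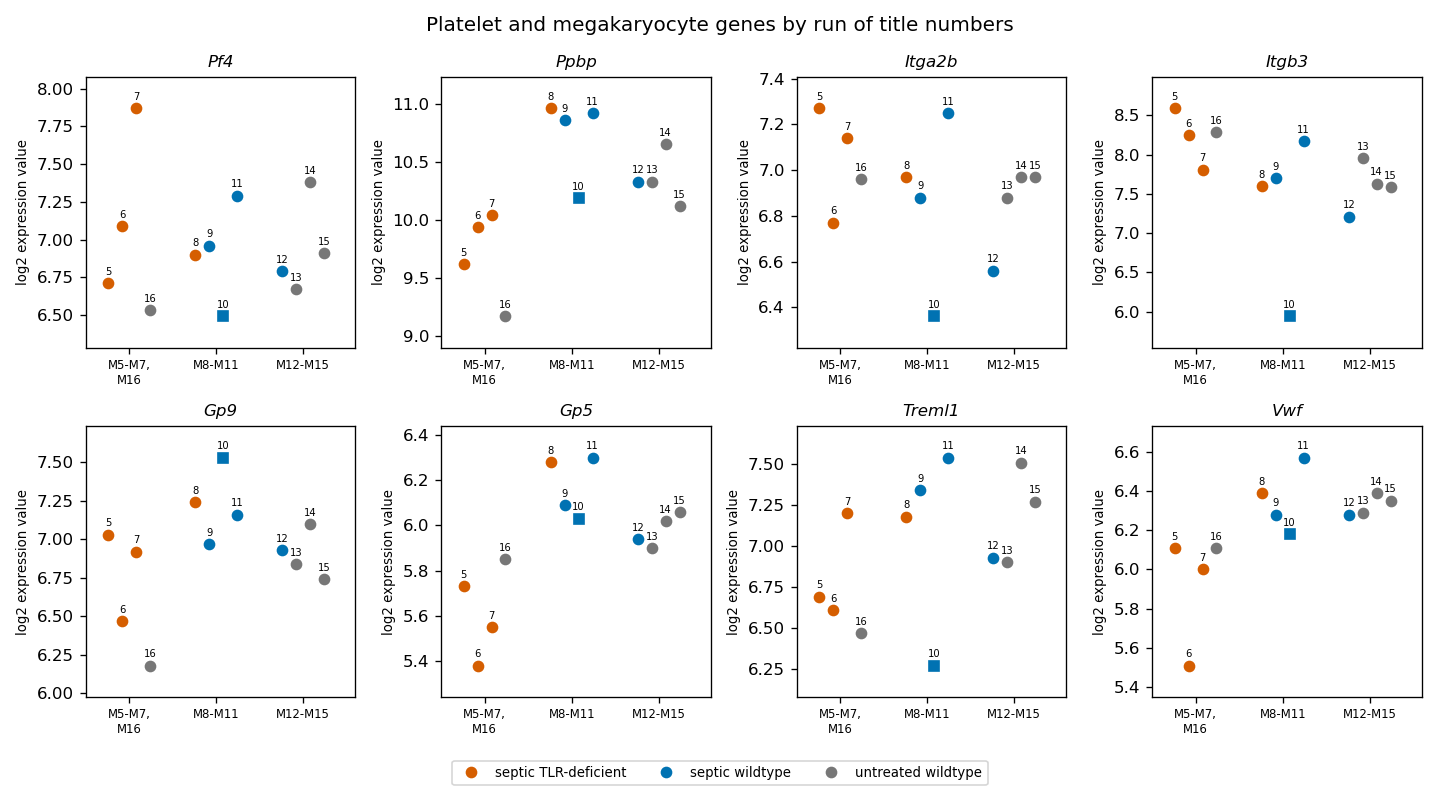
Log2 expression values of the 8 measured genes on each array, set out by the 3 runs of title numbers and coloured by label, with M10 as a square. Ppbp, Gp5 and Vwf are lower on M5 to M7 and M16 than on every other array, and Itgb3 is not.

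Other genes differed between the same runs. The 3 measured B cell genes had a mean log2 value of 9.25 to 9.67 on M5 to M7 with M16, 8.86 to 10.84 on M8 to M11, where 8.86 is M10, and 10.27 to 10.71 on M12 to M15. T cell genes ran from 7.35 to 7.57, from 6.87, again on M10, to 8.68 and from 7.72 to 8.64 on these runs. Without M10, both lymphocyte lists had lower means on M5 to M7 with M16 than on every other array. Ppbp, Gp5 and Vwf had this order with and without M10. Gene by gene, without M10, 3 of 3 B cell genes and 1 of 4 T cell genes (Cd3g) had it, against 5.07% of all genes. With M10 included, 1 of 3 B cell genes (Cd79b) and 0 of 4 T cell genes did, against 1.85%. Endothelial genes had means of 6.82 to 7.33, 6.12 to 7.33 and 6.89 to 7.44, so their ranges overlapped. Erythroid genes, 7 of 8 measured, overlapped as well, at 6.68 to 9.06, 6.45 to 8.76 and 7.69 to 8.37. Neutrophil genes had means of 5.93 to 8.08, 6.33 to 7.07 and 6.92 to 7.95, and red pulp macrophage genes of 8.62 to 9.21, 8.10 to 10.10 and 9.10 to 9.32, where 8.10 is M10 and the next value of that run is 9.75. The part of any of these cell types in the values of Ppbp, Gp5 and Vwf was not tested.

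The members did not move as 1 unit. Of their 28 pairs, 10 correlated above r = 0.5 across the 12 arrays and 8 below 0, with a median of 0.26. Without M10, 12 pairs lay above 0.5 and 9 below 0, with a median of 0.32. Gp5 and Vwf were the most alike, at 0.91 and at 0.92 without M10. Ppbp followed Treml1 (r = 0.71, and 0.82 without M10), Gp5 (0.66 and 0.67) and Gp9 (0.64 and 0.79). Itgb3 was opposed to Gp9 at -0.60, and at -0.33 without M10, and to Ppbp at -0.26, and at -0.53 without M10. These correlations describe 12 arrays that share a joint normalization and a few strong differences between arrays. Gp5 and Gp9, which hold both motifs in the sequences above, correlated at 0.52, and Gp5 and Ppbp, which holds neither, at 0.66. The pairs were not compared by motif content as a set, and any part of the motifs in these correlations was not tested.

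**Figure D4:**
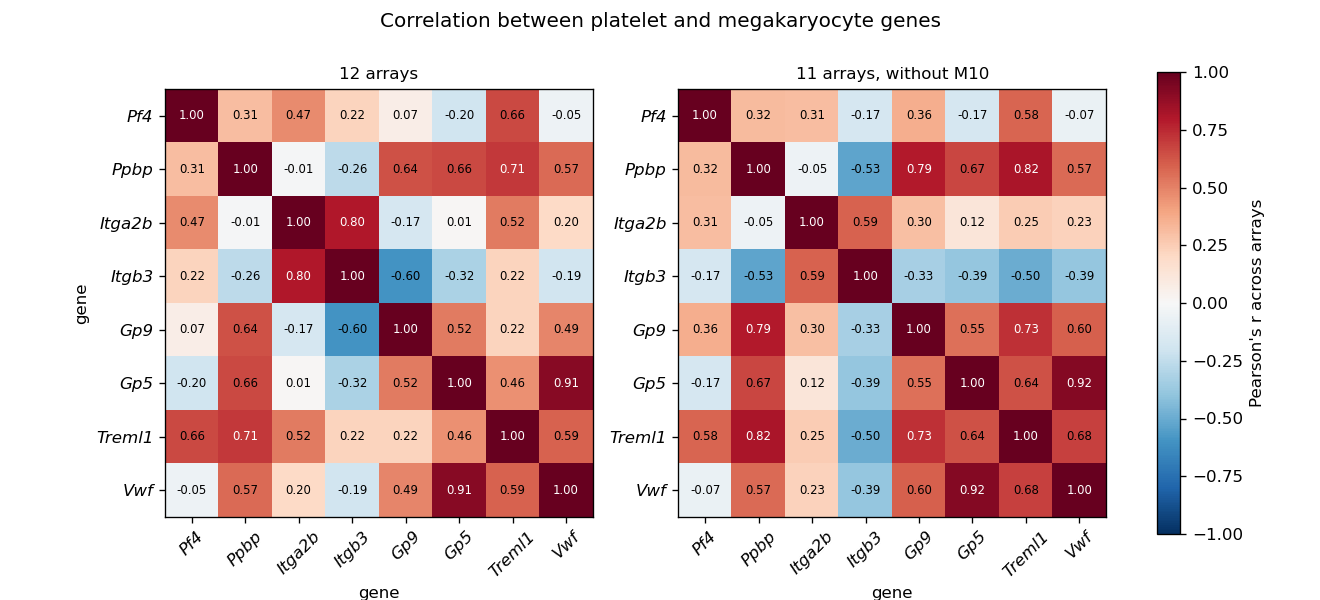
Pearson's r between the log2 values of each pair of measured genes, over 12 arrays (left) and over 11 arrays without M10 (right). Ppbp, Gp9, Gp5, Treml1 and Vwf form a block of positive values on the right, from 0.55 to 0.92, and Itgb3 is negative with all 5.

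The mean profile of the 8 members, each centred on its own mean, was highest on M11 (0.41), on which all 8 lay above their mean, and lowest on M10 (-0.37) and M16 (-0.30), with 2 of 8 above it on each. The 12 other genes most like this profile over the 12 arrays were Gnptg, Cd160, Higd2a, Spn, Dhrs7, Lamtor2, Slc46a1, Dapl1, Vkorc1, Lgals1, Cby1 and Pilrb2, with r from 0.92 to 0.96. Without M10 they were Dync2li1, Etv5, Cnpy2, Gnptg, Ssbp3, Cbr1, Vkorc1, Gatd3a, Poglut3, Anapc13, Tprgl and Mxra7, with r from 0.93 to 0.97. Gnptg and Vkorc1 were on both lists. None of the listed genes belongs to the platelet and megakaryocyte lists used here. Those lists hold 56 of the 19938 genes, so their absence from such short lists carries no information. The r values are high by choice, as they are the highest among all other genes of the table.

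Other genes of the platelet and megakaryocyte program were read from 4 lists, with 56 of 64 genes measured. No gene of any list passed in any comparison. Of 14 measured surface receptors and adhesion molecules, 8 had higher and 6 lower means on septic TLR-deficient than on septic wildtype arrays, with a median difference of 0.16 (median of all genes -0.06). Of 16 granule, secretion and metabolic genes 9 had higher means (median 0.15), of 14 cytoskeleton and signalling genes 5 (median -0.15), and of 12 transcription factors 8 (median 0.18). Between septic and untreated wildtype arrays the medians of the 4 lists were -0.19, -0.34, 0.09 and -0.07 in the same order, against 0.07 for all genes. Between septic TLR-deficient and untreated arrays they were -0.06, -0.05, -0.12 and -0.13, against 0.01. There, 13 of the 14 cytoskeleton and signalling genes had lower means, but the unadjusted p was under 0.05 for 0 of the 14 in limma. Of all genes, 51.9% had higher means in that comparison and 43.9% between the septic groups. The genes of a list share the same arrays, so their directions are not independent.

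By the rule for naming genes, those with the highest mean values are described for each list. M10 had a narrower spread of values than the other arrays (SD 1.52), and how many genes of the series were lowest on it was not counted. Among list genes not named by this rule, Gng11 (5.43) and Gata2 (6.96) were highest on M10, and Alox12 (4.64) and Mmrn1 (4.60) lowest. Itgb1, the beta chain of collagen and fibronectin receptors, ranged from 7.87 on M10 to 9.83 on M8 and M16, and Cd9, a tetraspanin of the platelet surface, from 7.45 on M10 to 9.19 on M8. Among receptors, Tbxa2r, which binds thromboxane, was at 5.90 to 6.37 on M5 to M7 and M16 and at 6.75 to 7.84 on the other arrays. Pecam1 and Esam, junction proteins of platelets and endothelium, were lowest on M10 at 7.31 and 5.66, and Itga2, a collagen receptor chain, ranged only from 6.28 to 6.99. Among granule genes, Thbs1, which encodes the matrix glycoprotein thrombospondin, was at 10.01 on M5, 9.29 on M6 and 10.14 on M16, and at 8.57 or lower on the other 9 arrays. Its difference was 1.36 (SE 0.49, adjusted p = 0.590) between TLR-deficient and wildtype septic arrays. Timp3, an inhibitor of matrix proteases that stromal cells also make, was at 8.77 to 9.81 on M5 to M7 and M16 and at 6.48 to 8.39 on the others. Clu, Sparc, Plek and Tgfb1, all made by other spleen cells too, were lowest on M10, at 8.77, 9.21, 7.57 and 7.71.

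Among cytoskeleton and signalling genes, Rasgrp2, an activator of the GTPase that switches platelet integrins on, was at 6.52 to 7.10 on M5 to M7 and M16, at 7.02 on M10 and at 8.19 to 8.88 on the other 7 arrays. Lymphocytes express it as well. Flna, Tln1 and Fermt3, which link integrins to actin, were lowest on M10, at 7.34, 7.50 and 7.09. Fyb was lowest there too, at 6.72, and Bin2 ranged from 6.59 on M6 to 9.21 on M8. Among transcription factors, Fli1, an ETS factor of megakaryocytes, and Mef2c were highest on M9, at 9.51 and 9.39. Runx1, Etv6 and Lyl1 were lowest on M10, at 6.57, 5.73 and 5.81, while Zfpm1, the partner of GATA factors, was highest there, at 7.99.

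Further genes were chosen after their values were seen, so their order is no independent evidence. Tubb1, the beta tubulin of platelets, was at 6.39 to 7.29 on M5 to M7 and M16, at 7.91 to 8.24 on M8 to M11 and at 6.73 to 7.98 on M12 to M15. Clec1b, the platelet receptor for podoplanin, was at 5.85 to 6.14, 6.62 to 7.69 and 6.44 to 7.09 on the same runs, so that the first run lay below all other arrays. Slc6a4, which takes up serotonin, was at 5.46 to 5.87, 5.81 to 6.55 and 5.93 to 6.42. F2rl3, a thrombin receptor, had the opposite order. It was at 6.95 to 7.46 on M5 to M7 and M16 and at 6.22 to 6.74 on the others. The first run lay above all other arrays for 1 of 14 receptors, F2rl3, and 1 of 16 granule genes, Timp3. Among cytoskeleton genes and transcription factors it did so for 0 of 14 and 0 of 12, against 1.72% of all genes. Without M10 the same genes had that order, against 2.18% of all genes. In the surface receptor list 2 of 14 genes, Clec1b and Tbxa2r, had the first run below all other arrays, and in the transcription factor list 1 of 12, Meis1, against 1.85% of all genes, while 0 of 16 granule and 0 of 14 cytoskeleton genes did. Without M10 these counts were 3 of 14 receptors, 3 of 12 transcription factors, 2 of 16 granule genes (Nbeal2 and Tbxas1) and 2 of 14 cytoskeleton genes (Rasgrp2 and Slc6a4), against 5.07% of all genes. On M7, the array highest for Pf4, Gata1 (6.90), Nfe2 (6.42), Gfi1b (8.01) and Tal1 (7.20) also had their highest values, 4 of the 12 transcription factors. Others of that list were near their lowest on M7: Fli1 (8.41) and Lyl1 (6.55) were lower only on M10, and Meis1 (5.69) only on M6. The erythroid list (9.06), the neutrophil list (8.08) and the proliferation list (8.78) had their highest means on M7 too, and their part in the Pf4 value was not tested.

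**Figure D5:**
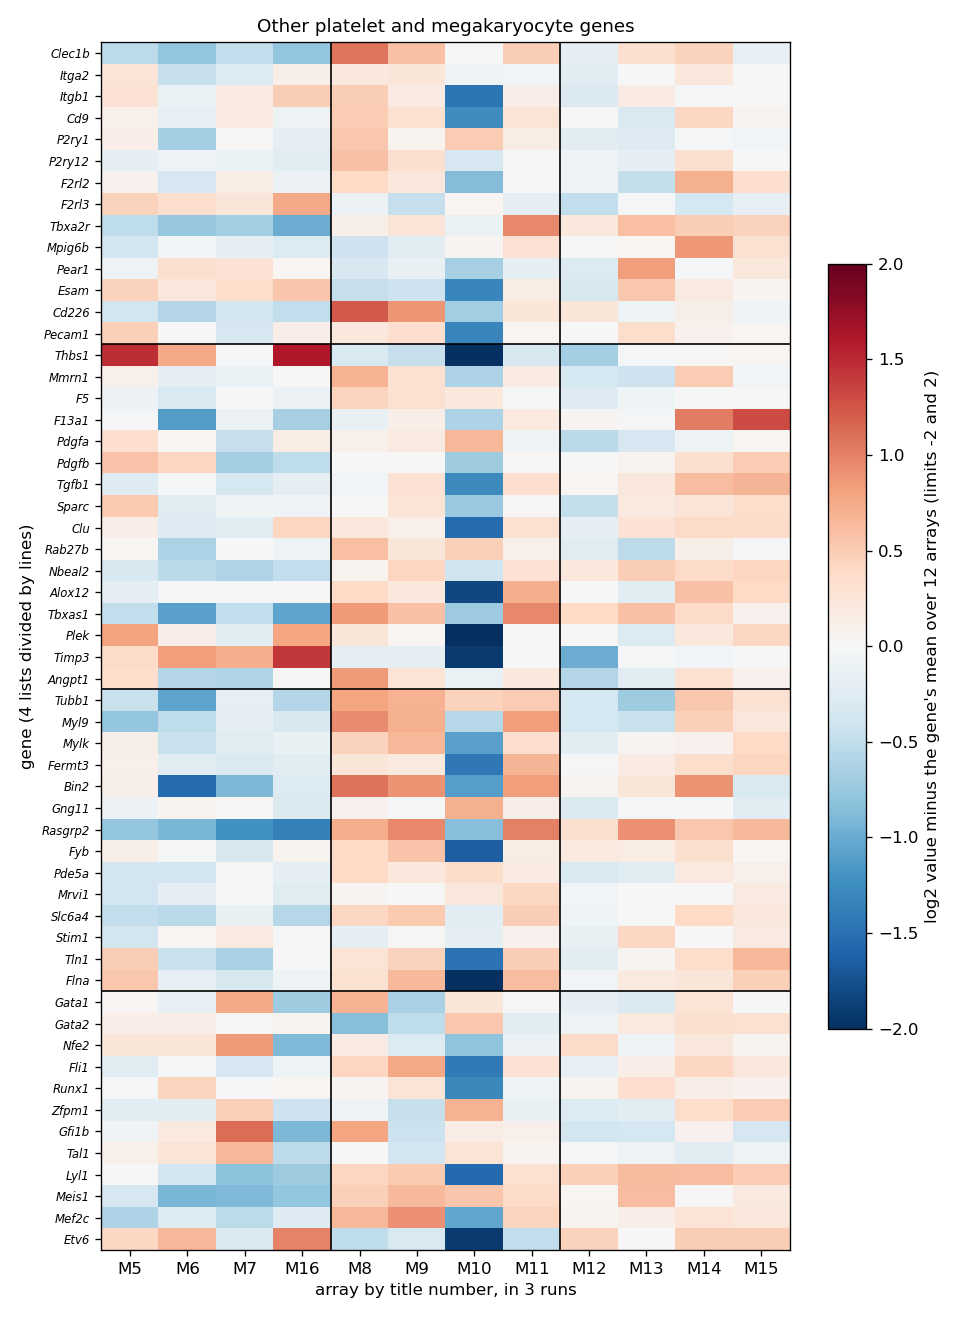
Log2 values of the 56 measured genes of the 4 lists, each minus its own mean over 12 arrays, with arrays in 3 runs of title numbers and lists divided by lines. M10 has dark blue cells in all 4 lists, and Thbs1 is highest on M5 and M16.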

How the data were processed

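RNA from mouse spleen was hybridised to Affymetrix arrays, 1 per sample. The deposited values are on a log2 scale and were made by the authors with RMA in Affymetrix Expression Console, per the submitters' processing notes, and versions are not given in the sources used here. RMA normalizes all arrays together, so 1 unusual array can shift values on the others. The platform annotation gave 1 gene symbol to 21789 of 35557 probe sets, several to 1621 and none to 12147, and 21698 were matched by gene identifier. Where a gene had several probe sets, the brightest on average was kept, which left 19938 genes.

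The labelled groups were compared by limma (version 3.58.1, R version 4.3.3) on all genes and all 12 arrays, with Benjamini-Hochberg adjustment over all genes and a threshold of 0.05. The procedure was run on simulated data with independent noise for each gene, without runs of title numbers or an outlying array. There it recovered 20.4% to 38% of changes of 1 log2 unit and 82.3% to 88.2% of changes of 2. The real arrays differ from that setting, and a difference of 1 log2 unit or less could be missed. The labels call the samples biological replicates, and their number limits the precision. Replicate numbers did not pair the arrays: deviations of same-numbered arrays correlated from -0.535 to 0.144. All members were named, together with the 12 genes most correlated with the members' mean profile and, as no list gene passed the threshold, the 6 genes of highest mean in each list. The members, the lists and the runs of title numbers were chosen with earlier results of these data known. Alternatives covered further normalization, centring, a low-value filter, probe set averaging, the samples fitted, a trended prior, array weights, a replicate block and arrays left out. Promoters came from RefSeq (GRCm38.p6) and were searched on both strands.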

Additional observations from a re-analysis of the deposited data

Results flagged for a closer look

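The measured members and the named list genes were examined within each labelled group, which made 96 sets of 4 values. In 9 of them 1 array lay far from the other 3 of its label, where chance gives about 1 in 20 for a single set. The sets share the same 12 arrays and are not independent, so the count cannot be set against that rate. Of the measured members only Itga2b was among them: untreated replicate 1 (M13) was at 6.88 and the other 3 untreated arrays at 6.96 to 6.97, a gap that is small in log2 units. On untreated replicate 4 (M16), Tbxa2r was at 5.90 (others 7.34 to 7.48), Rasgrp2 at 6.52 (8.41 to 8.79) and Lyl1 at 6.66 (7.87 to 8.0), and Thbs1 at 10.14 (8.50 to 8.57) and Timp3 at 9.81 (8.34 to 8.39). On septic wildtype replicate 2 (M10), Plek was at 7.57 (others 9.72 to 9.78) and Lyl1 at 5.81 (7.67 to 7.90). On septic TLR-deficient replicate 2 (M6), Runx1 was at 8.31 (others 7.83 to 7.91).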

How the results depend on the processing

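Leaving out any 1 array gave 0 genes and 0 members past the threshold in each comparison. The same held under other normalizations, filters and fits, except that array weights called 1 gene between septic and untreated wildtype arrays. With replicates 1 to 3 of each group, an alternative added after the data were seen, 141 genes passed between the septic groups, 9 between septic and untreated wildtype arrays and 33 between septic TLR-deficient and untreated arrays. With M10 left out as well, these counts were 1002, 19 and 675, and 2 members, Ppbp and Gp5, passed between the septic groups. In both added settings each labelled group lay within a single run of title numbers, so label and run cannot be told apart. Under these added settings the members' median difference was -0.32 and, without M10, -0.41 between the septic groups, -0.04 and 0.19 between septic and untreated wildtype arrays, and -0.24 in both between septic TLR-deficient and untreated arrays. The replicate block gave 0 genes and 0 members in each comparison and kept the members' medians at -0.17, 0.02 and 0.08.

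Of 192 member differences under the other normalizations, filters and fits 8 changed sign, and of 48 under the added settings 10 did. Between the septic groups, Treml1 was 0.01 with median centring, and Itga2b was -0.0056 with replicates 1 to 3 and no M10. Between septic and untreated wildtype arrays, median centring gave Pf4 -0.12 and Vwf -0.09, further quantile normalization Itga2b 0.01 and Treml1 0.17, and array weights Itgb3 0.03 and Treml1 0.09. There, replicates 1 to 3 gave Pf4 -0.07 and Vwf -0.0019, and leaving out M10 too gave Itga2b 0.12, Itgb3 0.21 and Treml1 0.21. Between septic TLR-deficient and untreated arrays, Ppbp was -0.15 with array weights and -0.50 under both added settings, and Gp9 was -0.09 under both. Leaving out 1 array at a time, Treml1 ranged from -0.35 to 0.07, from -0.20 to 0.23 and from -0.30 to 0.04 in the 3 comparisons, Pf4 from 0.02 (without M7) to 0.40, Gp9 from -0.34 to -0.09 and Vwf from -0.45 to -0.16 between the septic groups, Pf4 from -0.13 to 0.18 and Vwf from -0.04 to 0.09 between septic and untreated wildtype arrays, and Ppbp from -0.23 to 0.26 between septic TLR-deficient and untreated arrays. The members' medians ranged from -0.26 to -0.04, from -0.08 to 0.15 and from -0.11 to 0.13. The cause of these changes was not tested.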

Other observations

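Erythroid genes, which belong to a lineage that shares GATA1 with megakaryocytes, were described from a list of 8 with 7 measured. All 7 had higher means on septic TLR-deficient than on septic wildtype arrays, with a median difference of 0.60 (median of all genes -0.06). All 7 were also higher on septic TLR-deficient than on untreated arrays, with a median of 1.14 (all genes 0.01). Between septic and untreated wildtype arrays 6 of the 7 had higher means, with a median of 0.49 (all genes 0.07). Of all genes, 43.9%, 51.9% and 55.1% had higher means in these comparisons, in the same order. In each comparison 0 of the 7 passed the adjusted threshold in limma. The unadjusted p was under 0.05 for 2, 4 and 0 of the 7 in the same order, against 6.65%, 1.88% and 8.81% of all genes. The mean log2 value over the list was 8.16 to 9.06 on septic TLR-deficient arrays, 6.45 to 8.76 on septic wildtype arrays and 6.68 to 7.88 on untreated arrays. The 6.45 is M9, and the next septic wildtype value is 7.81. The 6.68 is M16, and the next untreated value is 7.69. The list means of TLR-deficient and untreated arrays did not overlap, but single genes mostly did. Alas2 and Hemgn, 2 of the 7, were higher on every TLR-deficient than on every untreated array, against 2.4% of all genes. The proliferation list, with 4 of 5 genes measured, had list means of 7.82 to 8.78 on septic TLR-deficient arrays, 6.95 to 7.65 on septic wildtype arrays and 7.21 to 7.69 on untreated arrays. All 4 of its genes had higher means on TLR-deficient arrays than on septic wildtype and untreated arrays. The medians were 0.74 and 0.71 (all genes -0.06 and 0.01). In both comparisons 0 of the 4 passed the adjusted threshold in limma, and the unadjusted p was under 0.05 for 3 and 2. Single genes mostly overlapped. Only Aurkb was higher on every TLR-deficient than on every septic wildtype array, against 2.05% of all genes. Relative to untreated arrays only Mki67 was, against 2.4%. The part of proliferation in the erythroid values was not tested.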
